A study of Mus musculus with 141 samples.

Results

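*Ryr2*, *Atp2a2*, *Acta2*, *Myh11*, *Tagln*, *Cnn1*, *Pln*, *Rgs5* and *Notch3* are 9 genes with known roles in the mural cells of blood vessels or in their calcium stores. They were taken by name from the 36558 genes of the deposited tables, with no threshold on a measured value but with earlier results of these data known. The data are RNA-seq libraries of inguinal white adipose tissue (iWAT), a subcutaneous depot, from inbred strains of the Hybrid Mouse Diversity Panel (HMDP). They comprise 67 female and 74 male libraries of 82 strains, with 1 library per sex and strain, and 59 strains have both. All mice, female and male alike, ate chow until 8 weeks of age and then a high-fat, high-sucrose diet for 8 weeks, and were fasted for 4 h before the tissue was taken. The panel holds classical inbred strains and recombinant inbred strains of the BXD, AXB/BXA, BXH and CXB families, and 1 of the BXD strains, BXD24/TyJ-Cep290<rd16>/J, carries a named mutation. Because a strain gives 1 library per sex, the tests of sex with a strain term measure the spread of the female-male difference across strains. The correlations within a sex measure the spread between strains. In both, the spread between animals of a strain is included and cannot be told apart. The comparisons ask whether the mural genes differ between the sexes, whether they follow the strain, and whether *Ryr2* and *Atp2a2* follow the smooth muscle and pericyte genes.

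Smooth muscle cells wrap arterioles and larger vessels and contract through actin and myosin filaments, while pericytes sit on capillaries. *Acta2* encodes smooth muscle actin, *Myh11* smooth muscle myosin heavy chain, *Tagln* the actin-binding protein transgelin and *Cnn1* calponin, an actin-binding regulator of contraction. *Rgs5* encodes a regulator of G protein signalling that marks pericytes, and *Notch3* the Notch receptor of mural cells, which is needed for their maturation. In the sarcoplasmic or endoplasmic reticulum, the pump SERCA2, encoded by *Atp2a2*, takes up calcium, phospholamban, encoded by *Pln*, inhibits that pump, and the ryanodine receptor encoded by *Ryr2* releases calcium into the cytosol. *Ryr2* and *Pln* are best known from cardiac muscle, and *Atp2a2* also has a form that most cell types make. Contractile genes are also expressed by myoepithelial cells, which surround the ducts of the mammary gland and lie within the inguinal fat pad of female mice.

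On GRCm38, the build of the authors' transcriptome, *Ryr2* lies on chromosome 13 (11553102 to 12106945, minus strand), *Atp2a2* on chromosome 5 (122453513 to 122502225, minus strand) and *Acta2* on chromosome 19 (34241090 to 34255590, minus strand). *Myh11* lies on chromosome 16 (14194535 to 14291372, minus strand), *Tagln* on chromosome 9 (45929619 to 45936058, minus strand) and *Cnn1* on chromosome 9 (22099216 to 22109630, plus strand). *Pln* lies on chromosome 10 (53337667 to 53345987, plus strand), *Rgs5* on chromosome 1 (169655501 to 169695813, plus strand) and *Notch3* on chromosome 17 (32120820 to 32166852, minus strand). All 9 are protein-coding.

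Serum response factor binds the CArG box in promoters of contractile genes, and RBPJ, the DNA-binding partner of Notch receptors, binds TGGGAA. The 250 bases before the RefSeq start were read on GRCm38.p6 for 6 of the 9 genes, and both strands were searched. The RefSeq start is not always the start of the gene span given above. The windows of *Acta2*, *Cnn1* and *Pln* reach into that span, and the *Acta2* matches below lie within it. The sequences of *Acta2*, *Cnn1* and *Ryr2* are shown because *Acta2* alone held a match, *Cnn1* had the largest sex difference of the 9 genes and *Ryr2* is the gene the comparisons turn on. Capitals mark the matches. They are given 5′ to 3′ on the gene's own strand.
Acta2, chr19:34255374-34255623, minus strand: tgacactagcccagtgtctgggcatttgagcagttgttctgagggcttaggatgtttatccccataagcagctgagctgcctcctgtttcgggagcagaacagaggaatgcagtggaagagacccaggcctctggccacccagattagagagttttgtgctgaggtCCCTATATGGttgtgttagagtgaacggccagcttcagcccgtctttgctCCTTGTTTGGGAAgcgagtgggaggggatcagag
Cnn1, chr9:22099003-22099252, plus strand: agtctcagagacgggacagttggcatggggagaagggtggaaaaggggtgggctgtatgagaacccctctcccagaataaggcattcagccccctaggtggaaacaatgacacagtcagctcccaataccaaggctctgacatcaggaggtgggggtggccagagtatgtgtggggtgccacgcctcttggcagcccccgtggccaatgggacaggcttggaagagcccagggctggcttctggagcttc
Ryr2, chr13:12106946-12107195, minus strand: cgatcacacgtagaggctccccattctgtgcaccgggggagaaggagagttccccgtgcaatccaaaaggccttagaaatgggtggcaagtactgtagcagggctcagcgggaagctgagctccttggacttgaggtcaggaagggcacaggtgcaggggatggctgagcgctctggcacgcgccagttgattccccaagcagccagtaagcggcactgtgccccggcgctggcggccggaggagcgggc

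None of the 6 promoters held a strict CArG box, which 1.47% of 32851 RefSeq promoters hold in the same window. With 1 inner C or G allowed, a form searched after the strict box gave no match, *Acta2* held CCCTATATGG, from 84 to 75 bases before the start, and CCTTGTTTGG, from 34 to 25 bases before it, and 7.24% of all promoters hold such a match. *Acta2* also held TGGGAA, from 27 to 22 bases before the start and overlapping the second of these, as do 21.6% of all promoters. A match is a description of these letters and not a measured binding site.

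The median library held 30233245 estimated counts, the shallowest 6269154 and the deepest 78562648. Expression is given as CPM, the count scaled to the TMM-adjusted library total. The floor of detection was taken as 3 counts, counting error only. Per library total, before TMM scaling, 3 counts are 0.0992 CPM at the median depth and 0.479 CPM in the shallowest library. TMM scaling raises the CPM of that shallowest library, so its floor is higher on the scale used here. Every library had more than 3 counts of each of the 9 genes, except 1 male library for *Cnn1*. The adipocyte genes were high in both sexes, with median *Adipoq* levels of 1623 CPM in females and 1808 CPM in males, while of 6 cardiac genes *Nppa*, *Myl7* and *Myh6* had a median of 0 CPM in both. The other cardiac genes were detected at low levels, with medians in females and males of 2.19 and 1.14 CPM for *Tnni3*, 0.944 and 0.124 CPM for *Tnnt2* and 0.225 and 0.245 CPM for *Actc1*, and *Tnni3* and *Tnnt2* were called higher in females in the fit of the sexes given further on. Some libraries stand apart. In 3 libraries the sum of 4 Y-linked genes went against the labelled sex (NZW/LacJ male, BXD34/TyJ female and BXD69/RwwJ female), and only NZW/LacJ is among the 59 matched strains. These 3 were not alike. Per library total, *Ddx3y* was at 0.317 CPM in the NZW/LacJ male and at 196 CPM in the BXD69/RwwJ female, where the male median was 164 CPM after TMM scaling, while in the BXD34/TyJ female it was at 2.28 CPM and the sum was carried by *Uty* (1259 CPM after TMM scaling, compared with at most 55.6 CPM in males). The summed skeletal muscle markers, also per library total, exceeded 1000 CPM in 4 libraries, from 1578 CPM in the BXD11/TyJ male to 25486 CPM in the BXD79/RwwJ female. The BXD34/TyJ female library, the shallowest, had the highest *Ryr2* level and the lowest *Atp2a2*, *Myh11*, *Rgs5* and *Notch3* levels of all female libraries. Values over the 59 matched strains leave out BXD34/TyJ, BXD69/RwwJ and BXD11/TyJ, which have a library of 1 sex only. Where a value is given without others of these libraries, those left out are named beside it. All other values include them.

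Levels between genes can be compared only per transcript length, as TPM. In females the order of the median TPM was *Acta2* (170), *Rgs5* (155), *Tagln* (116.6), *Atp2a2* (65.2), *Myh11* (30.7), *Cnn1* (18.2), *Notch3* (12.7), *Pln* (1.72) and *Ryr2* (1.28). In males it was *Rgs5* (249), *Acta2* (99.5), *Atp2a2* (65.6), *Tagln* (58.9), *Myh11* (21.6), *Notch3* (12.4), *Cnn1* (2.15), *Pln* (1.92) and *Ryr2* (1.62). Neighbours in these orders overlapped widely at several places. *Acta2* exceeded *Rgs5* in 39 of 67 female libraries, *Pln* exceeded *Ryr2* in 40 of 67 female and 40 of 74 male libraries, *Cnn1* exceeded *Pln* in 39 of 74 male libraries, and *Atp2a2* exceeded *Tagln* in 46 of 74. In both sexes *Ryr2* was thus at the low end and the pump gene *Atp2a2* in the middle of the contractile genes.

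In females *Ryr2* ran from 1.13 CPM in A/J through a median of 4.09 CPM to 20.2 CPM in CXB11/HiAJ, with the BXD34/TyJ library beyond these at 80.99 CPM. In males it ran from 1.28 CPM in BXD87/RwwJ through a median of 7.16 CPM to 29.4 CPM in CXB11/HiAJ and 36.7 CPM in NZB/BlNJ. CXB11/HiAJ was thus near the top in both sexes. *Atp2a2* varied least, from 78.5 CPM in BXD34/TyJ through a median of 207 CPM to 297 CPM in KK/HlJ among females, and from 120 CPM in BXH9/TyJ through 217 CPM to 285 CPM in AKR/J among males. Its coefficient of variation was 18.6% in females and 16.5% in males, the lowest of the 9 genes in each sex. For *Ryr2* it was 76.1% in males.

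**Figure D1:**
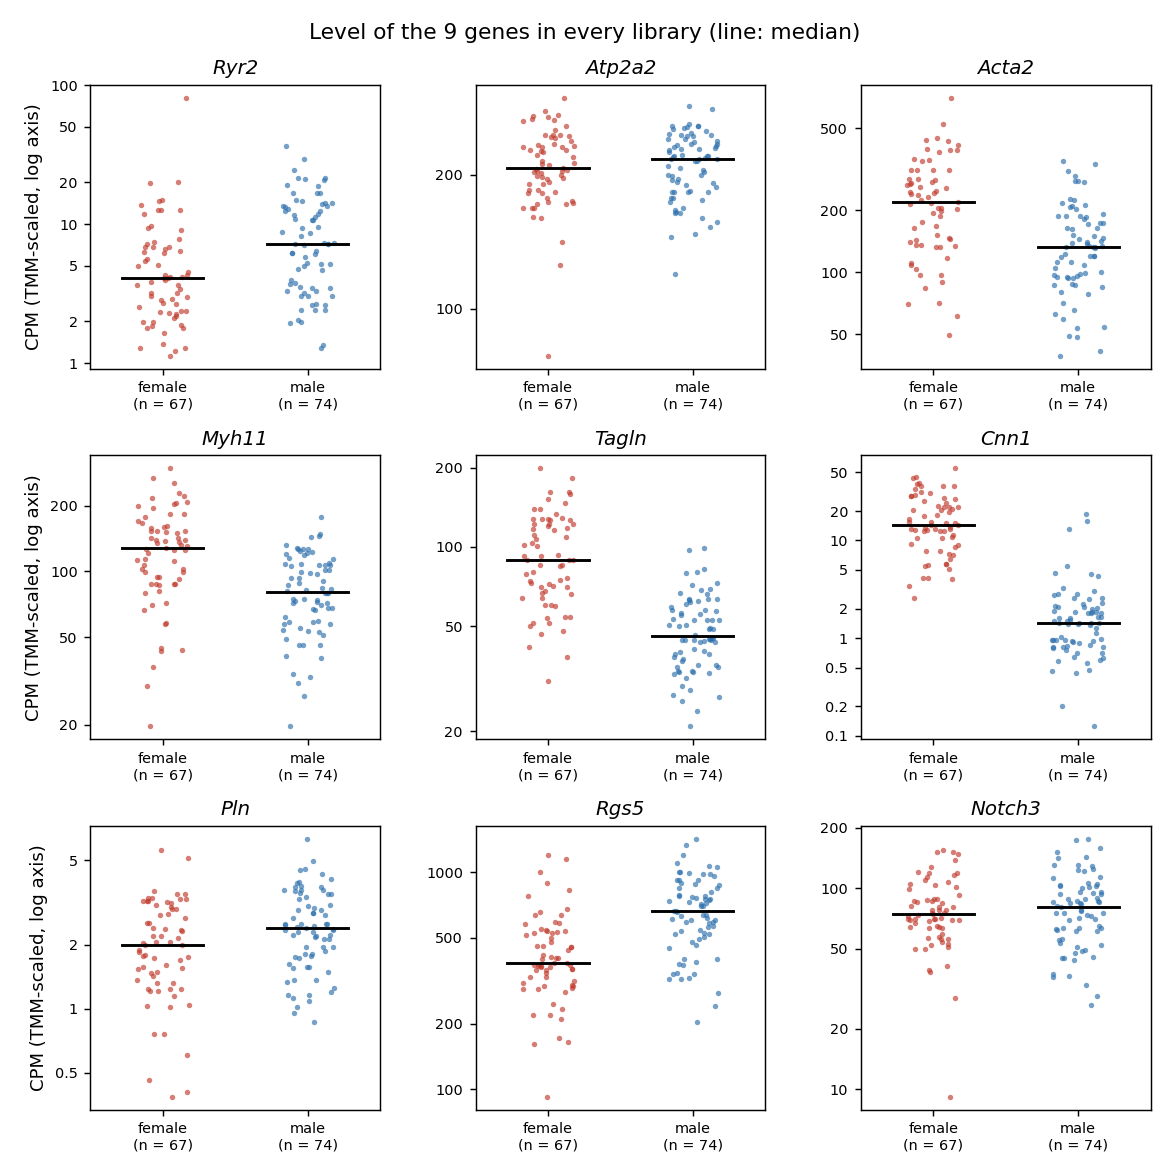
Level of each of the 9 genes in CPM (log axis) in every female (red, n = 67) and male (blue, n = 74) library, with a black line at the median. *Cnn1* medians were 14.3 CPM in females and 1.44 CPM in males, and the single female point far above the others for *Ryr2* is the BXD34/TyJ library at 80.99 CPM.

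Between the sexes, the contractile genes were higher in females, while *Rgs5*, *Ryr2* and *Pln* were lower in females, over the 59 matched strains. In an edgeR quasi-likelihood fit of ~ Strain + Sex, Benjamini-Hochberg adjusted over 16765 genes, 4 of the 9 genes were called higher and 3 lower in females at an adjusted p under 0.05, and *Atp2a2* and *Notch3* were not called. Of all genes tested, 28.4% were called higher and 29.8% lower (4759 and 4988 genes, 58.1% in either direction). With library totals in place of TMM this split was 7364 higher and 2794 lower, and the median log2FC of all genes moved from 0.012 to 0.12. In bulk tissue, fewer cells of a type and less RNA per cell cannot be told apart.

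*Cnn1* ran from 2.56 CPM through a median of 14.3 CPM to 54.8 CPM in the female libraries, and from 0.125 CPM through 1.44 CPM to 18.6 CPM in the male ones. The groups overlapped. The highest male library is that of NZW/LacJ and the lowest female one that of BXD69/RwwJ. In both, the Y-linked genes go against the label. In the matched strains the mean of *Cnn1* was 18.5 ± 11.5 CPM for females against 2.47 ± 3.35 CPM for males (SD, n = 59, as for the means that follow). It was higher in females in 56 strains and had a log2FC (female vs. male) of 3.21 (SE 0.20, edgeR adjusted p = 2.4e-21). Without NZW/LacJ its log2FC was 3.26.

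The other contractile genes had smaller differences and overlapping groups. *Tagln* averaged 94.7 ± 37.5 CPM for females against 51.6 ± 16.9 CPM for males and was higher in females in 55 of 59 strains (log2FC = 0.85, SE 0.08, edgeR adjusted p = 4.8e-14). *Acta2* averaged 232 ± 127.9 CPM against 141.3 ± 63.6 CPM, with females higher in 45 strains (log2FC = 0.67, SE 0.12, edgeR adjusted p = 2.2e-06). For *Myh11*, the means were 132.2 ± 58.9 CPM and 87.9 ± 31.99 CPM, with females higher in 50 strains (log2FC = 0.55, SE 0.09, edgeR adjusted p = 6.6e-07).

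The pericyte gene *Rgs5* went the other way. It averaged 428 ± 192 CPM for females against 667 ± 235 CPM for males, had the lower value in the female library of 51 of 59 strains and had a log2FC of -0.66 (SE 0.08, edgeR adjusted p = 4.3e-10). *Notch3*, the other pericyte gene, had 80.9 ± 29.3 CPM and 86.3 ± 33.04 CPM and a log2FC of -0.06 with a 95% interval from -0.20 to 0.07 (edgeR adjusted p = 0.43).

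*Ryr2* went in the direction of *Rgs5* and not in that of the contractile genes. The study had already reported a mild male bias of *Ryr2* in iWAT, so its direction here is not a new observation. Its means were 4.87 ± 3.85 CPM for females and 9.28 ± 7.28 CPM for males, and the female library had the lower value in 51 of 59 strains. It was lower by 0.84 on the log2 scale (SE 0.11, edgeR adjusted p = 1.1e-09), and the difference ranged from -2.80 in NZW/LacJ to 1.39 in PL/J. The NZW/LacJ library labelled male had a Y-linked sum of 9.36 CPM per library total, close to the 8.87 CPM of the female one, so the lower end of this range may not compare the sexes. Without NZW/LacJ its log2FC was -0.81. The size of the difference varied between fits. It was -0.26 on log2(TPM + 1) and -0.39 on log2(TPM + 0.1) with limma. Without the strain term it was -0.53 over all libraries and -0.92 over the matched strains. The fit of all libraries adds every unmatched one, the BXD34/TyJ female library among them, and the part of each was not tested. *Pln* averaged 2.11 ± 1.07 CPM for females against 2.65 ± 1.11 CPM for males, with the female library lower in 43 strains (log2FC = -0.38, SE 0.10, edgeR adjusted p = 8.4e-04). In the BXD strains alone *Pln* had a log2FC of -0.17 (edgeR adjusted p = 0.23) and in the other strains of -0.54 (edgeR adjusted p = 0.0026), and the difference between these 2 groups of strains was not called (0.37, SE 0.19, edgeR adjusted p = 0.9999, unadjusted p = 0.059), in a test that called 0.0% of all genes.

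*Atp2a2* averaged 210.2 ± 35.9 CPM for females against 213 ± 31.9 CPM for males, was higher in females in 29 strains and lower in 30, and had a log2FC of -0.01 with a 95% interval from -0.09 to 0.06 (edgeR adjusted p = 0.79). With library totals in place of TMM its log2FC was 0.09 (edgeR adjusted p = 0.0043), at a median of all genes of 0.12. *Ryr2*, *Rgs5*, *Pln* and the 4 contractile genes kept their direction and stayed called with that scaling and with RLE size factors.

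The wider lists are given by their counts, beside 28.4% higher and 29.8% lower among all genes. The 16 other smooth muscle genes went both ways, with 8 higher in females, 5 lower and 3 not called, at a median log2FC of 0.12 compared with 0.012 for all genes. Of 8 transcription factors and cofactors of smooth muscle, 1 was higher and 1 lower, at a median of -0.04. Among the 16 other smooth muscle genes, the higher ones included *Itga8* (1.56, SE 0.12), an integrin subunit, and *Actg2* (1.73, SE 0.20), enteric smooth muscle actin. *Kcnmb1* (1.37, SE 0.12), a subunit of the calcium-activated potassium channel of smooth muscle, was also higher. The lower ones of these 16 included *Synpo2* (-0.97, SE 0.13), an actin-associated protein, and *Casq2* (-0.54, SE 0.11), the calsequestrin that buffers calcium in the reticulum.

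Of 15 other pericyte genes, 12 were lower in females and 1 was higher, at a median of -0.39 compared with 0.012 for all genes. The largest of the lower ones were *Cspg4* (-0.86, SE 0.10), the NG2 proteoglycan, *Mcam* (-0.73, SE 0.12), a cell adhesion molecule, and *Ndufa4l2* (-0.65, SE 0.10). The higher one was the cation channel gene *Trpc6* (1.29, SE 0.17). Among 7 endothelial genes, 6 were lower and none higher, and all 5 adipocyte genes and all 4 macrophage genes were lower in females. Fibroblast and progenitor genes did not go this way, with 3 of 6 higher (*Lum*, *Dpp4* and *Pdgfra*), none lower and a median of 0.24, and of 6 Schwann and nerve genes 2 were higher and 3 lower. With library totals the endothelial counts were 5 lower and 1 higher, 4 fibroblast genes were higher, and 3 of the 4 macrophage genes were lower.

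In the Notch pathway, 8 of 17 genes were higher and 5 lower in females. The ligand gene *Dll4* (-0.65, SE 0.09), the receptor gene *Notch4* (-0.55, SE 0.08) and the target gene *Heyl* (-0.61, SE 0.10) were lower, while the target gene *Hey1* (0.59, SE 0.11), the target gene *Hes1* (0.39, SE 0.06) and the protease gene *Adam10* (0.27, SE 0.03) were higher. The list's median was -0.01, and 0.10 with library totals. Of 30 genes of calcium cycling, in the reticulum or at the plasma membrane, or of its control, 12 were lower in females and 5 higher, at a median of -0.15. The lower ones included *Casq1*, *Jph1* and *Asph*. *Atp2b4* (-0.78, SE 0.10), a calcium pump of the plasma membrane, *Slc8a1* (-0.68, SE 0.10), the sodium-calcium exchanger, and *Camk2d* (-0.35, SE 0.04), a calcium-dependent kinase, were lower. *Ryr3* (0.94, SE 0.25), another ryanodine receptor, and *Itpr3* (0.66, SE 0.14), an inositol trisphosphate receptor, were higher.

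Markers of the mammary gland had larger differences. All 5 myoepithelial and all 5 luminal genes were higher in females, at a median log2FC of 6.89 and 6.50, compared with 0.76 for the 4 contractile genes. *Krt5* and *Krt14*, keratins of myoepithelial cells, had medians of 37.5 CPM and 18.4 CPM in females and 0 CPM in males, where 56 and 59 of 74 libraries had at most 3 counts. The summed 5 myoepithelial genes ran from 37.99 through 216 to 633 CPM in females and from 3.65 through 87.7 to 514 CPM in males. *Oxtr* and *Trp63* of that list had medians of 81.2 CPM and 2.48 CPM in males and so are not particular to females.

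Across the 67 female libraries, the mean log2 CPM of *Krt5* and *Krt14* was positively correlated with the 4 contractile genes and, with smaller rho, with *Notch3* and *Atp2a2*. Spearman's rho was 0.92 for *Cnn1* (Pearson's r = 0.83), 0.75 for *Myh11* (r = 0.56) and 0.64 for *Tagln* (r = 0.44), with a permutation p of 1e-05 for each rho, the smallest that 100000 resamples can give, and an adjusted permutation p of 6e-05 over 18 such tests. For *Acta2* rho was 0.48 (adjusted permutation p = 3.6e-04) and r was 0.24 (adjusted permutation p = 0.071). Without the 2 libraries farthest from the median keratin level, r was 0.88 for *Cnn1*, 0.78 for *Myh11*, 0.63 for *Tagln* and 0.54 for *Acta2*. For *Notch3* rho was 0.40 (adjusted permutation p = 0.0028, r = 0.29), and for *Atp2a2* it was 0.33 (adjusted permutation p = 0.021) with an r of 0.25 (adjusted permutation p = 0.070). Without the same 2 libraries r was 0.53 for *Notch3* and 0.51 for *Atp2a2*. For *Ryr2* rho was -0.22 (adjusted permutation p = 0.17) and r was -0.34 (adjusted permutation p = 0.027), and for *Rgs5* rho was -0.13 (adjusted permutation p = 0.36) and r was -0.20 (adjusted permutation p = 0.16). The part of the keratin-expressing tissue in the sex difference of the contractile genes, or in the relation of *Atp2a2* to *Notch3*, was not tested. In males, where most libraries had at most 3 counts of these keratins, rho passed for *Cnn1* alone (0.31, adjusted permutation p = 0.021), while r passed for *Cnn1* (0.63, and 0.46 without the 2 farthest libraries), *Myh11* (0.29, adjusted permutation p = 0.038) and *Tagln* (0.28, adjusted permutation p = 0.038). Without the 2 farthest libraries r was 0.21 for *Myh11* (permutation p = 0.080) and 0.17 for *Tagln* (permutation p = 0.15). These male values include the NZW/LacJ library, which had the highest luminal sum of the male libraries (362 CPM).

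In 2 matched strains, both keratins were under 5 CPM in the female library, a limit set after the values were seen. In 129X1/SvJ the difference between the female and male library on the log2 scale was 0.01 for *Acta2*, -0.52 for *Myh11*, -0.50 for *Tagln* and 0.13 for *Cnn1*. In BXD24/TyJ-Cep290<rd16>/J it was 0.92 for *Acta2*, 0.27 for *Myh11*, 0.90 for *Tagln* and 1.85 for *Cnn1*. *Myh11* and *Tagln* were thus lower in the female library of the one strain and all 4 genes were higher in that of the other, while *Ryr2* was lower in the female library of both (-0.60 and -0.41).

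Across strains, all 9 genes differed beyond the residual spread of the model, in a test in which 71.2% of all genes were called (edgeR F test of the strain term, Benjamini-Hochberg adjusted p from 2.6e-10 for *Ryr2* to 0.026 for *Cnn1*). *Ryr2* had an F of 6.43, above 96.8% of the genes tested, and *Notch3* followed with 3.33. *Cnn1*, with the largest sex difference of the 9, had the lowest F at 1.76. Without NZW/LacJ all 9 were still called, with an F of 7.12 for *Ryr2*, 3.12 for *Rgs5* in place of 2.60, and 1.64 for *Cnn1* (edgeR adjusted p = 0.041).

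The correlation between both libraries of a strain is nearly the same quantity as the strain F, since a strain gives 1 library per sex, and is given here as a description of its size and not as a second observation. Over 59 strains, rho between the sexes was 0.71 for *Ryr2* (r = 0.72) and 0.56 for *Notch3* (r = 0.54), with an adjusted permutation p of 9e-05 for each. It was between 0.41 and 0.48 for *Pln*, *Myh11*, *Rgs5* and *Atp2a2*, 0.30 for *Tagln* and 0.27 for *Acta2*. For *Cnn1* rho was 0.05 (r = 0.06, adjusted permutation p = 0.72), although its strain F was called. Without the 2 strains farthest from the median, r was 0.68 for *Ryr2* and 0.60 for *Notch3*, and for *Acta2* it was 0.25 (permutation p = 0.066).

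**Figure D2:**
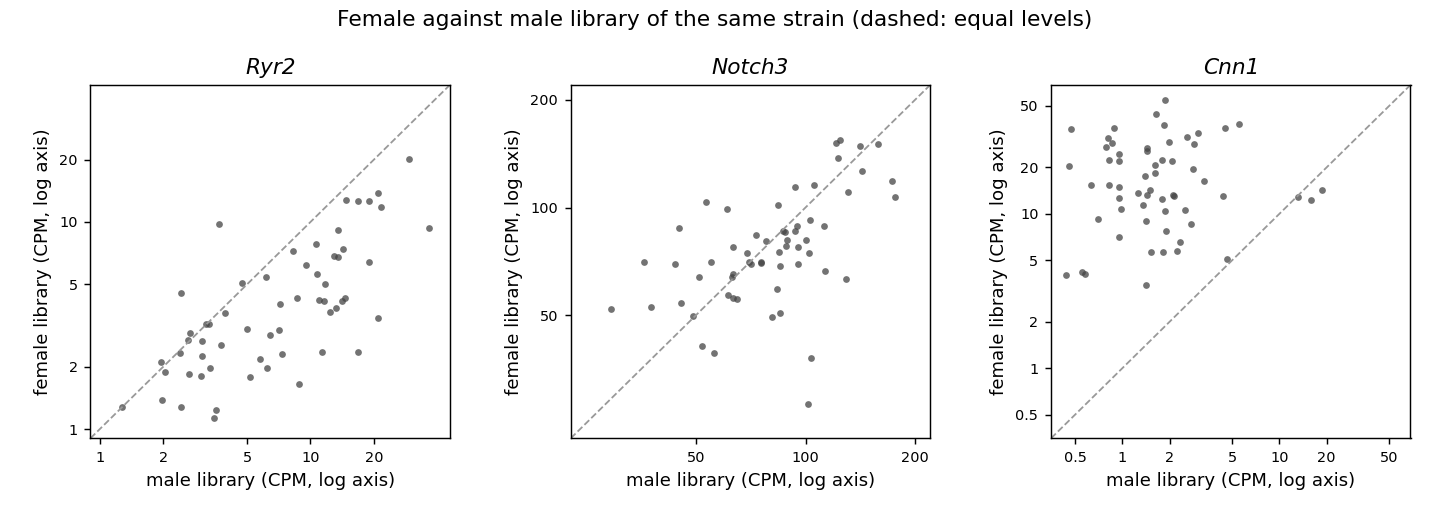
Level in the female library against the level in the male library of the same strain (CPM, log axes, n = 59 strains) for *Ryr2*, *Notch3* and *Cnn1*, with a dashed line at equal levels. The points of *Ryr2* run along the line but mostly below it (rho = 0.71), those of *Notch3* lie on both sides of it (rho = 0.56), and those of *Cnn1* lie above it in 56 of 59 strains with no order between the sexes (rho = 0.05).

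The levels of *Ryr2* in the families of strains are given here as values only, with no test. In males its median was 14.1 CPM in 23 classical inbred strains, 6.18 CPM in 34 BXD strains and 4.72 CPM in 11 AXB/BXA strains. In females the medians were 4.16, 4.25 and 2.25 CPM in 21, 32 and 9 strains. For *Atp2a2* the male medians of these families were 219, 217 and 192 CPM and the female medians 207, 215 and 178 CPM.

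*Ryr2* had no common direction with the smooth muscle and pericyte genes. In females, rho with *Ryr2* was 0.22 for *Acta2*, -0.11 for *Myh11*, 0.01 for *Tagln*, -0.25 for *Cnn1*, -0.04 for *Notch3* and 0.30 for *Rgs5*, and in males it was 0.11, -0.09, 0.01, -0.17, -0.01 and -0.04. Of these, *Rgs5* in females passed (adjusted permutation p = 0.033 over 30 tests), but its r was 0.09 (adjusted permutation p = 0.61) and became 0.35 (permutation p = 0.0034) without BXD34/TyJ and CXB11/HiAJ, the 2 libraries farthest from the median. Within BXD females rho with *Rgs5* was 0.48 and within the other females 0.10, and with *Cnn1* it was -0.62 within BXD females and 0.0011 within the others.

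With *Atp2a2*, the gene of the pump, rho of *Ryr2* was 0.24 in females (adjusted permutation p = 0.080, r = -0.04) and 0.27 in males (adjusted permutation p = 0.039, r = 0.24, adjusted permutation p = 0.090). Without the 2 libraries farthest from the median, r was 0.35 in females (permutation p = 0.0054) and 0.23 in males (permutation p = 0.061). In females the relation passed in 3 alternatives, with rho of 0.42 on TPM (adjusted permutation p = 0.0012, r = -0.15), 0.33 without those 2 libraries (adjusted permutation p = 0.015) and 0.29 without the skeletal-rich and shallowest libraries (adjusted permutation p = 0.039). It did not pass with library totals (rho = 0.20), without the Y-mismatch libraries (rho = 0.27) or within either group of strains. With *Pln*, which encodes the inhibitor of the pump, rho was -0.02 in females and -0.40 in males (adjusted permutation p = 0.0014, r = -0.39, adjusted permutation p = 0.0021), and in males r was -0.43 without the 2 farthest libraries. Within BXD males rho with *Pln* was -0.31 and within the other males -0.37. For the within-strain differences between the sexes, no gene passed with *Ryr2*, with rho of 0.02 for *Atp2a2* and -0.09 for *Pln*.

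**Figure D3:**
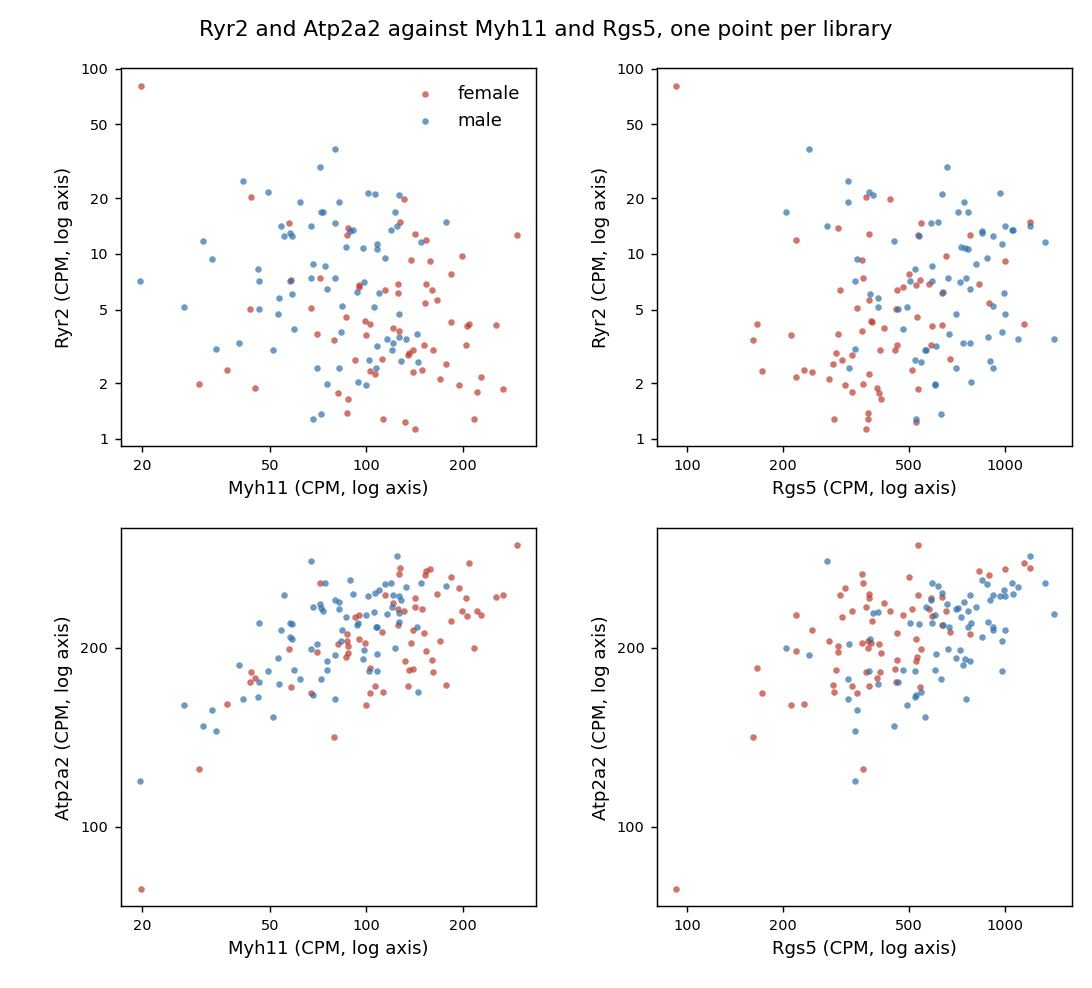
*Ryr2* (top) and *Atp2a2* (bottom) against *Myh11* (left) and *Rgs5* (right), in CPM on log axes, 1 point per female (red) or male (blue) library. *Atp2a2* rises with both genes in both sexes (rho from 0.51 to 0.57), while *Ryr2* has a rho between -0.11 and 0.30, and the female point at 80.99 CPM of *Ryr2* is the BXD34/TyJ library.

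In a fit across all genes with the log2 CPM of *Ryr2*, in SD units, as covariate, none of the 8 other genes was called in females by edgeR, where 25.9% of all genes were called rising and 18% falling, and only *Rgs5* had an unadjusted p under 0.05 (p = 0.049). Without the BXD34/TyJ and BXD79/RwwJ libraries, *Rgs5* (0.26 per SD, SE 0.07, edgeR adjusted p = 0.0067) and *Atp2a2* (0.08 per SD, SE 0.03, edgeR adjusted p = 0.041) rose, at 18% rising and 16.7% falling among all genes. In males *Pln* fell by 0.22 per SD (SE 0.07, edgeR adjusted p = 0.020) and no other member was called, where 7.61% of all genes were called rising and 3.94% falling. Without the 3 male libraries rich in skeletal muscle RNA the call was the same, at -0.22 for *Pln* (edgeR adjusted p = 0.021), where 7.77% of all genes were called rising and 3.76% falling. The slopes on *Ryr2* were also compared between the sexes, by edgeR. None of the 8 was called, where 18.7% of all genes were, and none had an unadjusted p under 0.05. Without the 4 skeletal-rich libraries and the shallowest library none was called either, where 0.926% of all genes were, with an unadjusted p under 0.05 for *Rgs5* (female minus male 0.28, p = 0.0067) and *Pln* (0.24, p = 0.035).

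*Atp2a2* was positively correlated with each of the smooth muscle and pericyte genes. In females rho was 0.76 with *Notch3*, 0.57 with *Myh11*, 0.51 with *Rgs5*, 0.51 with *Acta2*, 0.37 with *Tagln* and 0.30 with *Cnn1*, and in males it was 0.62, 0.57, 0.53, 0.53, 0.49 and 0.37. All 12 passed, with adjusted permutation p of at most 0.034, while the share of all genes that would pass this test was not computed. Over 16861 genes, the 95th percentile of rho with *Atp2a2* was 0.55 in females and 0.56 in males, and most of these 12 values lie below it. The r agreed in direction in all 12 and missed the threshold for *Tagln* in females (r = 0.26, adjusted permutation p = 0.078). Without BXD34/TyJ and AXB19/PgnJ, the 2 farthest libraries, r in females was 0.73 with *Notch3*, 0.56 with *Myh11*, 0.58 with *Rgs5*, 0.54 with *Acta2*, 0.42 with *Tagln* and 0.24 with *Cnn1* (permutation p = 0.056 for *Cnn1*). With *Pln*, rho was 0.28 in females (adjusted permutation p = 0.041) and 0.03 in males (adjusted permutation p = 0.89), and r in females was 0.22 (adjusted permutation p = 0.13).

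These relations are also given separately for the BXD strains and for all other strains together. The share of all genes that would pass was not computed for these counts either. Within the 32 BXD females rho of *Atp2a2* was 0.66 with *Notch3*, 0.59 with *Rgs5*, 0.34 with *Myh11*, 0.26 with *Acta2*, 0.02 with *Cnn1* and -0.08 with *Tagln*, and 2 genes passed there. Within the 35 other females it was 0.87, 0.44, 0.78, 0.74, 0.58 and 0.75. Within males, rho was 0.55 with *Notch3* and 0.63 with *Rgs5* in 34 BXD strains and 0.67 and 0.42 in 40 others. For the within-strain differences between the sexes, rho was 0.63 with *Notch3*, 0.53 with *Myh11*, 0.46 with *Acta2* and 0.40 with *Rgs5*, and 4 genes passed. Whether the BXD and the other strains differ in these relations was not tested.

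**Figure D4:**
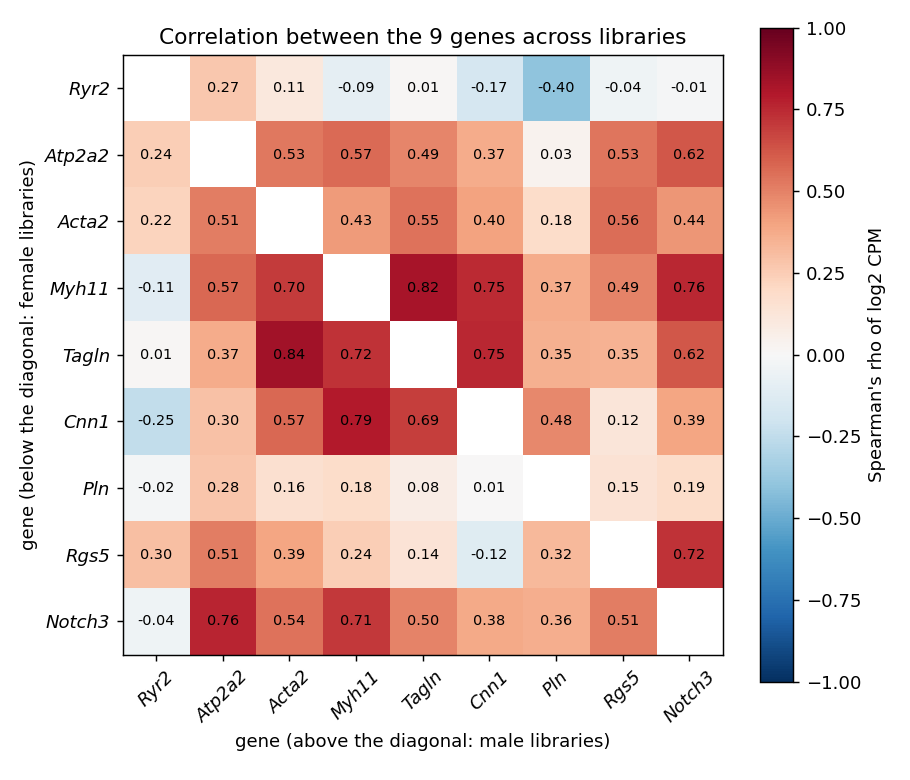
Spearman's rho between each pair of the 9 genes over the 67 female libraries (below the diagonal) and over the 74 male libraries (above it), in colour from -1 to 1. The first row and column, *Ryr2*, hold values between -0.40 and 0.30, while the second, *Atp2a2*, holds values up to 0.76 with the mural genes.

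Among all genes, *Atp2a2* correlated with many. The 5th and 95th percentiles of its rho over 16861 genes were -0.56 and 0.55 in females and -0.58 and 0.56 in males. Its rho with *Notch3* ranked 26th in females (above 99.8% of genes) and 458th in males (above 97.3%), and that with *Myh11* was above 96.2% and 95.1%. Those with *Acta2* and *Rgs5* were above 92.7% to 93.3% and so within these percentiles. Those with *Tagln* (above 81.3% in females and 90.98% in males) and *Cnn1* (above 73.8% and 82.7%) ranked lower.

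With *Atp2a2* as covariate in edgeR, 6 of the 8 other genes rose in females (all except *Ryr2* and *Tagln*), where 24.9% of all genes were called rising and 31.3% falling. In males 5 rose (*Acta2*, *Myh11*, *Tagln*, *Rgs5* and *Notch3*), where 25.7% were called rising and 30.2% falling. *Notch3* rose by 0.51 per SD in females (SE 0.05, edgeR adjusted p = 4.6e-15) and by 0.43 in males (SE 0.05, edgeR adjusted p = 3.4e-10). *Ryr2* was the exception in females, where it fell by 0.30 per SD (SE 0.09, edgeR adjusted p = 0.0043). That direction turned when 2 libraries were left out together, and their separate parts in the slope were not tested. In the correlations, r of *Ryr2* with *Atp2a2* in females was -0.04 with all libraries. It was 0.27 without BXD34/TyJ and BXD69/RwwJ, where BXD79/RwwJ was kept. Without BXD34/TyJ and BXD79/RwwJ, *Ryr2* rose by 0.32 per SD (SE 0.13, edgeR adjusted p = 0.030) and *Tagln* rose by 0.26 (SE 0.07, edgeR adjusted p = 0.0011), so that all 8 rose, where 28.8% of all genes were called rising and 27.6% falling. In males the slope of *Ryr2* was 0.21 (SE 0.12, edgeR adjusted p = 0.15), and without the 3 skeletal-rich libraries the same 5 genes rose, where 27.4% of all genes were called rising and 30.5% falling. Between the sexes, the slope on *Atp2a2* differed for *Ryr2* alone of the 8 genes, where 15.2% of all genes were called by edgeR, and for none without the 4 skeletal-rich libraries and the shallowest library, where 0.101% were called and no member had an unadjusted p under 0.05.

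The wider lists of smooth muscle, pericyte and other vascular genes were read in the same fits. The counts that follow leave out the skeletal-rich and the shallowest libraries, a choice made after the data were seen. With *Atp2a2*, where 28.8% of all genes rose in females and 27.4% in males, 13 of 16 other smooth muscle genes rose in females and 12 in males, 12 of 15 other pericyte genes rose in each sex, and all 7 endothelial genes rose in each sex. Of the 8 transcription factors and cofactors of smooth muscle, 4 rose and 2 fell in each sex, where 27.6% of all genes fell in females and 30.5% in males. *Pdgfrb*, the receptor for the growth factor that recruits pericytes, rose by 0.31 per SD in females (SE 0.05) and by 0.38 in males (SE 0.04). Markers of other cell types moved with *Atp2a2* as well. Of 6 fibroblast genes, 5 rose in each sex. All 5 adipocyte genes rose in females, while in males 1 of 5 did, below the share of all genes. Of 4 macrophage genes, 2 rose in females and 4 in males. Of 5 mammary myoepithelial genes, 2 rose in females (*Oxtr* and *Krt5*) and 1 in males (*Oxtr*), and no luminal gene rose in either sex. Their part in the relation of *Atp2a2* to the mural genes was not tested. With all libraries kept, the smooth muscle counts were 9 and 11, the pericyte counts 11 and 11 and the endothelial counts 6 and 7, where 24.9% and 25.7% of all genes rose. Of the transcription factors and cofactors, 2 rose and 4 fell in females, and 3 rose and 2 fell in males, where 31.3% and 30.2% of all genes fell. In that fit 4 myoepithelial genes (*Krt5*, *Krt17*, *Oxtr* and *Krt14*), 2 luminal genes and 1 adipocyte gene rose in females. There 7 of 11 skeletal muscle genes fell in females and 0 rose, where 31.3% of all genes fell. Without the skeletal-rich and shallowest libraries, 1 skeletal muscle gene fell in females.

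With *Ryr2*, 3 of 16 other smooth muscle genes rose in females (*Synpo2*, *Casq2* and *Mylk*), a share near the 18% of all genes that rose in this fit. In males none rose and *Actg2* fell, where 7.77% of all genes rose and 3.76% fell. Of the 8 transcription factors and cofactors of smooth muscle, 1 rose and 1 fell in females, where 16.7% of all genes fell. In males 0 of these 8 rose and 1 fell. *Synpo2* rose by 0.57 per SD in females (SE 0.12, edgeR adjusted p = 3.5e-04) and *Casq2* by 0.38 (SE 0.09, edgeR adjusted p = 0.0011). Of the 15 other pericyte genes, 5 rose in females (*Mcam*, *Ndufa4l2*, *Rgs4*, *Higd1b* and *Pdgfrb*) and 1 in males (*Cspg4*), and 4 of 7 endothelial genes rose in females and none in males. Other cell types moved in these fits too. In males 4 of 6 Schwann and nerve genes fell and 1 rose, and 2 of 4 macrophage genes rose. In females 2 of 5 adipocyte genes rose, and of the Schwann and nerve genes 1 rose and 1 fell. Their part in the relations of *Ryr2* was not tested. With all libraries kept, where 25.9% of all genes rose and 18% fell in females, 4 other smooth muscle genes rose and 4 fell in females, 2 pericyte genes and 1 endothelial gene rose, and 9 of 11 skeletal muscle genes fell, compared with 0 rising and 1 falling skeletal muscle gene without the 2 female libraries.

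For the Notch pathway, in the same fits, 12 of 17 genes rose with *Atp2a2* in each sex, where 28.8% of all genes rose in females and 27.4% in males. Among them were *Dll4* (0.32 per SD in females, SE 0.08, and 0.33 in males, SE 0.06) and *Heyl* (0.40, SE 0.07, and 0.30, SE 0.07), and 2 fell in each sex, where 27.6% and 30.5% of all genes fell. With *Ryr2*, 5 Notch genes rose and 1 fell in females, where 18% of all genes rose and 16.7% fell. In males 2 fell, where 3.76% of all genes did. With all libraries kept, no Notch gene rose with *Ryr2* in females and 2 fell, where 25.9% of all genes rose and 18% fell.

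Among 30 calcium cycling genes, 13 rose and 5 fell with *Atp2a2* in females and 14 rose and 5 fell in males, beside the shares of all genes just given for *Atp2a2*. *Casq2* rose (0.42 in females, SE 0.09, and 0.33 in males, SE 0.09) and *Ryr3* fell (-0.69, SE 0.13, and -0.98, SE 0.17). With all libraries kept, 4 of the 30 rose and 6 fell in females, where 24.9% of all genes rose and 31.3% fell. In males 11 rose and 5 fell in that fit, where 25.7% of all genes rose and 30.2% fell. With *Ryr2*, 12 of the 30 rose and 2 fell in females, with *Slc8a1* rising (0.35, SE 0.10), where 18% of all genes rose and 16.7% fell. With all libraries kept 10 rose and 9 fell, where 25.9% of all genes rose and 18% fell. In males 2 rose with *Ryr2*, *Cacna1d* and *Srl*, a share of the list near the 7.77% of all genes that rose.

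The genes whose levels were most like those of *Ryr2* were in none of the smooth muscle and pericyte lists used here. The cell types that express them were not tested. By the mean of the female and male rho, they were *P2ry1*, a purinergic receptor gene (0.62), *Sftpa1* (0.61), *Slc35f6* (0.60), *Hydin* (0.58), *Hsd17b7* (0.58), *S100a8* (0.58), *Itgad* (0.57), *Fam83a* (0.57), *Lipf* (0.57) and *Fhl1* (0.56), over 67 female and 74 male libraries. *Sftpa1* had medians of only 0.158 CPM in females and 0.324 CPM in males, near the floor of detection. For *Atp2a2* they were *Arhgap35* (0.83), *Ube3c* (0.82), *Dock1* (0.81), *Lman1* (0.80), *Fam120a* (0.79), *Ctnnd1* (0.79), *Adgrl2* (0.79), *Golim4* (0.79), *Dip2a* (0.78) and *Dip2c* (0.78). None of the 9 genes studied here is among these 20, which are descriptions with no test.

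*Ryr2* was also lower in females in fits that held 1 mean of mural genes equal at a time, and neither fit made all mural genes equal between the sexes. With the mean log2 CPM of the 4 contractile genes added to ~ Strain + Sex, *Ryr2* was lower by 0.69 (SE 0.21, edgeR adjusted p = 0.011), or by 0.59 without NZW/LacJ (SE 0.21, edgeR adjusted p = 0.016), and with the mean of *Rgs5* and *Notch3* by 0.78 (SE 0.13, edgeR adjusted p = 2.7e-06). In these fits 18.4% and 17.3% of all genes were called lower and 18.8% and 20% higher. The call for *Atp2a2* changed direction with the covariate. It was lower in females by 0.21 (SE 0.07, edgeR adjusted p = 0.013) at equal contractile expression and higher by 0.10 (SE 0.04, edgeR adjusted p = 0.029) at equal *Rgs5* and *Notch3*. *Pln* was lower in both fits (-0.72, SE 0.19, and -0.35, SE 0.12), and *Rgs5* and *Notch3* were lower at equal contractile expression (-0.63, SE 0.16, and -0.42, SE 0.13). At equal *Rgs5* and *Notch3*, the 4 contractile genes were higher in females, from 0.73 (SE 0.10) for *Myh11* to 3.02 (SE 0.25) for *Cnn1*. The contractile covariate itself differs between the sexes and is correlated with the keratins in females.

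*Ryr2* also differed between the sexes in the transcript length implied by its count and TPM. A gene's estimated count and TPM in a library differ by the abundance-weighted length of its transcripts and a constant of the library, so their ratio shows whether longer or shorter transcripts prevail. *Ryr2* has 14 annotated transcripts from 626 to 16814 bases, of which 9 are labelled as retained introns. Relative to the median gene of the library, the implied length of *Ryr2* was shorter in females by 0.37 on average on the log2 scale (SE 0.06, n = 59), longer in females in 12 strains, with an adjusted permutation p of 9e-05 over the 9 genes (permutation test of signs, two-sided, at the smallest p that 100000 resamples can give).

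On a scale in bases, set by genes with 1 annotated transcript, the median implied length of *Ryr2* was 4744 bases in females and 6148 in males. It ran from 1496 bases in the BXD34/TyJ library, and otherwise from 2451 bases, to 9006 bases in females, and from 2630 to 9010 bases in males. This scale is approximate, since the median for *Notch3*, 9161 bases in females, exceeds its longest annotated transcript of 8016 bases. All values of *Ryr2* lay below the 16814 bases of its longest transcript.

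The implied length rose with the level of *Ryr2*, with rho of 0.77 in females (r = 0.49) and 0.69 in males (r = 0.73), each with an adjusted permutation p of at most 7.2e-04. Without the 2 farthest libraries r was 0.81 and 0.71 (unadjusted permutation p = 0.0001 for each, the smallest that 10000 resamples can give). Level and length share the *Ryr2* count and so are not independent. Whether the implied length differs between the sexes at an equal level of *Ryr2* was not tested. The sex difference of *Ryr2* was -0.84 on counts with edgeR and -0.39 on log2(TPM + 0.1) with limma. TPM divides by length, but these fits also differ in scaling and method, and the part of length was not tested. *Cnn1* was the other gene with a clear difference, longer in females by 0.25 (SE 0.07) and in 42 of 59 strains (adjusted permutation p = 7.2e-04). *Myh11* was shorter in females by 0.01 (adjusted permutation p = 0.002), which did not hold with 2 other library constants, and for *Atp2a2*, *Acta2*, *Tagln*, *Pln*, *Rgs5* and *Notch3* the mean difference was at most 0.03 in size and not called.

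**Figure D5:**
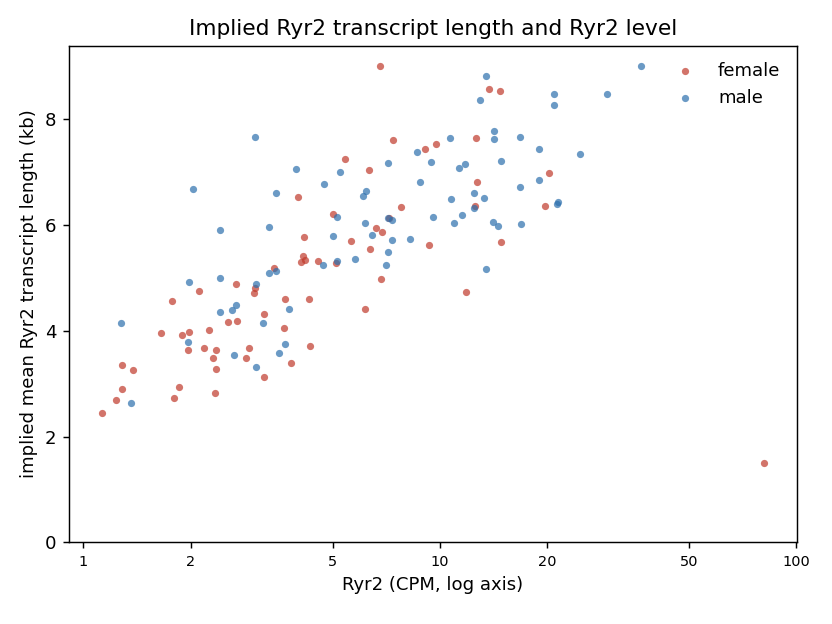
Implied mean transcript length of *Ryr2* in kb against its level in CPM (log axis), 1 point per female (red) or male (blue) library. Length and level rise together (rho = 0.77 in females and 0.69 in males), and the female point at the far right, at 80.99 CPM and 1496 bases, is the BXD34/TyJ library.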

How the data were processed

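The authors sequenced stranded poly(A) libraries of iWAT and estimated transcript abundance with kallisto (0.46.1 per the submitters' processing notes) against Ensembl transcripts of GRCm38, summed to genes with tximport. The deposited tables hold expected counts, of which 30.3% were not whole, and TPM, the authors' count per transcript length scaled to each library. The 9 genes and all gene lists were chosen with earlier results of these data known.

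Counts were rounded, filtered with filterByExpr by sex, scaled by TMM and tested with edgeR 4.0.16 (quasi-likelihood, Benjamini-Hochberg adjustment over all genes tested) in ~ Strain + Sex, following the study's model. Fits per sex used the standardised log2 CPM of *Ryr2* or *Atp2a2* as covariate. Correlations used permutation tests (100000 resamples, 10000 for alternatives, two-sided; scipy 1.17.1). These treated all strains as exchangeable and took no account of relatedness, such as that within the BXD family, so their p-values may be too small. Alternatives used DESeq2 1.42.0, limma 3.58.1, other scalings, no filter and subsets of strains. Named genes are the 9 genes, list members and the 10 genes with the highest mean rho with *Ryr2* or *Atp2a2*. On simulated data, 198 of 199 sex changes of 0.5 to 1 on the log2 scale and 164 of 200 covariate changes of 0.2 to 0.4 were recovered, with 9 and 5 false calls.

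Chosen after the data were seen were the limits of 100 CPM for Y-linked genes and 1000 CPM for skeletal muscle markers, both per library total. So were the limit of 5 CPM for keratins, the relaxed CArG box and the interaction fits. The fits without the skeletal-rich and shallowest libraries were chosen then too. A change of sign was counted only where a value was called.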

Additional observations from a re-analysis of the deposited data

Results flagged for a closer look

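The slope of *Ryr2* on *Atp2a2* differed between the sexes by a test of the difference itself. In an edgeR fit of all libraries with a term for sex, the slope per SD of *Atp2a2* was lower in females by 0.507 on the log2 scale (female minus male -0.507, SE 0.16, edgeR adjusted p = 0.0186), where 15.2% of all genes were called. The difference was not called in a fit that left out a few libraries together. Without the 4 libraries rich in skeletal muscle RNA and the shallowest library, BXD34/TyJ female, it was 0.11 (SE 0.18, edgeR adjusted p = 0.89), and 0.101% of all genes were called. Both fits were added after the data were seen, and the part of each library in the difference was not tested.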

How the results depend on the processing

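Strain pairs the libraries of both sexes by the labels, as in the study's model, so the strain is the replicate block. With no replicate block, the log2FC of *Ryr2* was -0.92 and that of *Atp2a2* -0.01, 8190 genes were called compared with 9747, and no call among the 9 genes changed. With all libraries and no block, *Pln* was not called (-0.25, edgeR adjusted p = 0.056). *Atp2a2* was called with library totals (0.095) and at equal *Rgs5* and *Notch3* (0.10, compared with -0.21 at equal contractile expression), opposite in direction. Dropping 1 of the 59 strains at a time, by limma-voom, gave -0.93 to -0.86 for *Ryr2*, -0.03 to 0.00078 for *Atp2a2*, and 4 genes called higher and 3 lower each time.

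Counts of genes correlated with *Ryr2* were small and moved. For these counts and those with *Atp2a2*, the share of all genes that would pass was not computed. In females 1 gene passed with a positive rho, compared with 3 on TPM, 2 without the 2 farthest libraries, 2 without the skeletal-rich and shallowest libraries, and 0 with library totals, in the strains other than BXD and for differences within strains, while 1 passed with a negative rho in BXD strains and 0 otherwise. In males 1 passed in each direction, and 0 in BXD strains, in other strains and for differences within strains. With *Atp2a2* 7 passed with a positive rho in females, compared with 2 in BXD strains, where rho with *Tagln* was -0.076, and 4 for differences within strains. Without the skeletal-rich and shallowest libraries, the slope of *Ryr2* on *Atp2a2* in females was 0.32 in place of -0.30, and its difference between the sexes 0.11 in place of -0.51. The slope of *Atp2a2* on *Ryr2* was 0.077 and called, 2 genes rose with *Ryr2* and 0 fell with *Atp2a2*. The cause was not tested. The values above include 4 that turned and 17 counts that moved, beside 356 alternative values of the same kinds that kept direction and call. Of the other values of single genes, 758 kept both, 30 lost the call, 5 gained it and 1 turned, the rho of *Tagln* above.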
